A study of Mus musculus with 11 samples.

Results

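The genes of oxidative phosphorylation were followed through 11 libraries of RNA captured through tagged endothelial ribosomes, from mouse brain and from experimental glioma. Members were the rows whose symbols begin with Ndufa, Ndufb, Ndufc, Ndufs, Ndufv, Cox4 to Cox8, Uqcr or Atp5, the rows Sdha, Sdhb, Sdhc, Sdhd and Cyc1, and the protein-coding rows of mitochondrial DNA. Symbols with the ending -ps, 4 in number, and Cox4i1 were left out. This gave 105 genes of 45808 in all, 92 coded in the nucleus and 13 in mitochondrial DNA, and each of the 105 was held by the RefSeq table of the same genome build. Of these, 95 reached the expression filter of at least 1 FPKM in at least 2 libraries (87 nuclear and 8 mitochondrial). FPKM is a level per length, the fragments of a gene divided by its transcript length and by the library's mapped fragments.

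Oxidative phosphorylation passes electrons from nutrients along complexes I to IV of the inner mitochondrial membrane and uses the resulting proton gradient in complex V, the ATP synthase. Most subunits are coded in the nucleus, translated on cytosolic ribosomes and imported, while a small set of core subunits of complexes I, III, IV and V is coded in mitochondrial DNA and translated inside the organelle on its own ribosomes. Complex II is coded entirely in the nucleus. Brain endothelial cells are known for a high mitochondrial content relative to endothelium of other tissues.

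All mice were adult C57BL/6 animals carrying a fusion of enhanced green fluorescent protein with L10a, a protein of the large cytosolic ribosomal subunit, driven by the promoter of VE-cadherin, an endothelial cadherin. The 4 groups were dissected GL261 tumours of Eltd1-/- mice (n = 2), GL261 tumours of wild type mice (n = 3), healthy brain of wild type mice (n = 3) and healthy brain of Eltd1-/- mice (n = 3). GL261 is a mouse glioma line that was injected into the brain, and Eltd1, now named Adgrl4, codes an adhesion receptor of endothelial cells. Tagged ribosomes were captured with antibody-coated beads and their RNA was sequenced. The host mice, not the glioma cells, carried the tag and the mutation, and the sources used here do not say which part of Eltd1 was disrupted.

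Between 8978 and 15433 genes were above 0 in a library, and sequencing depth is unknown. Adgrl4 ran from 82.7 to 166 FPKM in wild type brain against 21.6 to 23.6 in knockout brain, and from 27.4 to 192 in wild type tumour against 5.82 and 11.5 in knockout tumour. Wild type tumour replicate 2 stood apart, with 37.9% of the tested nuclear members listed at 0 against 1.15% to 13.8% in the other libraries. Over all tested genes the share at 0 was 42.7% there and 7.79% to 25.7% elsewhere. Of its 33 members at 0, 19 were above 0 in each of the 10 other libraries. An exact 0 can be a failed estimate in these files, so members with a library at 0 are given by their single values. The 10 endothelial markers were above 0 in every library, and their summed FPKM was 211 to 474 in the 5 tumours against 999 to 1515 in the 6 brains.

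The mitochondrial mRNAs were nearly missing from tumour ribosome preparations and far higher in those of brain. In brains they still summed to only 0.0912% to 0.209% of all FPKM. The tag sits on a cytosolic ribosomal protein, while these mRNAs are translated on the ribosomes of the organelle. How they came into the preparations was not tested, so their levels do not measure mRNA bound to tagged endothelial ribosomes. Their summed FPKM was 13.6, 0 and 4.49 in wild type tumours and 15.03 and 17.7 in knockout tumours. It was 651, 1199 and 485 in wild type brains and 777, 550 and 629 in knockout brains. No tumour library came near a brain library in either genotype, and the highest tumour sum was 2.27% of the wild type brain mean. By contrast, the nuclear members summed to 8474 to 10102 FPKM in tumours and to 8183 to 11177 in brains, so that mitochondrial mRNA amounted to at most 0.186% of the nuclear sum in a tumour and to at least 4.38% of it in a brain.

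The highest mitochondrial-coded mRNA in every brain was mt-Co1, the catalytic core of cytochrome c oxidase (complex IV). It was listed at 410, 415 and 295 FPKM in wild type brains and at 349, 327 and 321 in knockout brains. Tumours held 6.57, 0 and 4.49 FPKM in wild type mice and 8.26 and 9.94 in knockout mice. The groups did not overlap, and mt-Co1 fell in tumour in both genotypes, with a log2 change of -6.74 in wild type (SE 0.61, limma adjusted p = 0.0001332) and -5.05 in knockout mice (SE 0.68, limma adjusted p = 0.001744). The knockout call was lost with a pseudocount of 0.1 (limma adjusted p = 0.06016). Log2 changes are of FPKM + 1, which understates the change of low values.

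Complex I core subunits followed the same order. mt-Nd1, which lies where the membrane arm meets the ubiquinone site, had 109, 191 and 57.5 FPKM in wild type brains and 94.3, 41.1 and 57.8 in knockout brains, against 2.64, 0 and 0 in wild type tumours and 0 and 1.02 in knockout tumours. mt-Nd5, a proton-pumping subunit at the far end of the membrane arm, had 29.4, 110 and 46.9 FPKM in wild type brains and 87.5, 15.1 and 30.2 in knockout brains, against 2.34, 0 and 0 and against 4.81 and 3.34 in the tumours of the same genotypes. mt-Nd4, another pumping subunit, was at 0 in the 3 wild type tumours, at 1.95 and 0.411 in knockout tumours, and between 8.34 and 81.2 in the 6 brains. All tumour values of these members lay under all brain values. mt-Nd1 and mt-Nd4 fell in both genotypes (limma adjusted p between 0.0003335 and 0.02308). However, mt-Nd4 reached the expression filter only through brain libraries, which favoured a lower tumour estimate, and its wild type tumours at 0 added no spread. mt-Nd5 fell in wild type tumour (log2 change -5.19, SE 0.76, limma adjusted p = 0.001354) and missed the threshold in knockout tumour (-2.82, SE 0.85, limma adjusted p = 0.06751).

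mt-Cytb, the only complex III subunit of mitochondrial DNA, fell in both genotypes, with log2 changes of -3.91 in wild type (SE 0.86, limma adjusted p = 0.01056) and -3.66 in knockout mice (SE 0.96, limma adjusted p = 0.04122). Its highest tumour value was 2.97 FPKM and its lowest brain value 4.81 FPKM. In knockout mice the mt-Cytb call was lost under 11 of 24 alternatives (limma adjusted p 0.05194 to 0.3786), the mt-Nd2 call under 8 (0.06526 to 0.2345) and the mt-Nd4 call under 6 (0.05519 to 0.1896), while that of mt-Nd1 was lost under none. mt-Nd2 was at 1.12, 0 and 0 FPKM in wild type tumours and at 0 in both knockout tumours, against 0, 53.6 and 25.99 in wild type brains and 63.0, 35.9 and 22.9 in knockout brains. With 1 wild type brain also at 0, it passed in knockout mice (limma adjusted p = 0.03803) and not in wild type mice (limma adjusted p = 0.08819). Both mt-Nd2 and mt-Cytb reached the expression filter only through brain libraries, which favoured a lower tumour estimate. The knockout tumours at 0 for mt-Nd2 also added no spread. mt-Nd6 and mt-Atp8 were at 0 in all 5 tumours and did not pass. Of the 6 brains, 4 held mt-Nd6 at 1.98 to 22.3 FPKM and 4 held mt-Atp8 at 96.7 to 334 FPKM, and the others were at 0.

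In count, 5 of the 8 tested mitochondrial members were lower in wild type tumour, where 11.7% of all 15604 tested genes were lower, and 5 of 8 in knockout tumour, where 2.29% of all tested genes were lower. None was higher in either genotype, where 7.7% and 4.79% of all tested genes were higher. The median log2 change of the 8 was -4.55 in wild type and -4.36 in knockout, against -0.26 and -0.18 over all tested genes. However, mt-Nd2, mt-Nd4, mt-Nd6, mt-Cytb and mt-Atp8 passed the expression filter only through brain libraries. For them the filter itself favoured a lower tumour estimate, which limits what this count and median show. Leaving out a library moved the knockout count to 2 without knockout tumour replicate 1, knockout tumour replicate 2, knockout brain replicate 1 or knockout brain replicate 3, and to 3 without knockout brain replicate 2. The mitochondrial ribosomal RNAs, which are no members, had the same order: mt-Rnr1 and mt-Rnr2 together ran from 44.8 to 168 FPKM in tumours and from 2825 to 10106 in brains.

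**Figure D1:**
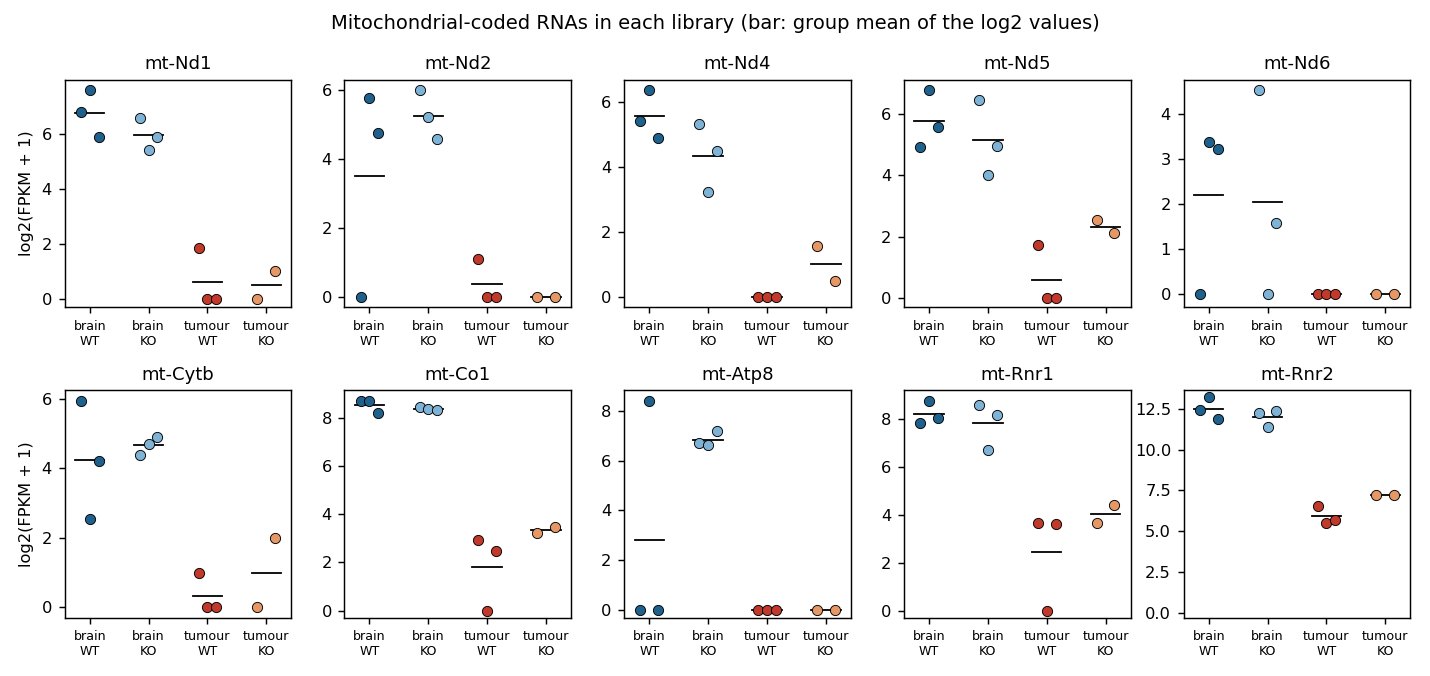
Each panel shows 1 mitochondrial-coded gene, with log2(FPKM + 1) on the vertical axis and the 4 groups on the horizontal axis. Points are libraries and bars are group means of the log2 values. For mt-Co1 the 5 tumour libraries lie between 0 and 9.94 FPKM and the 6 brain libraries between 295 and 415 FPKM.

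Detection of the mitochondrial rows split by length, though not in order of it. The 6 rows of 957 bases or more (mt-Nd1, mt-Nd2, mt-Cytb, mt-Nd4, mt-Co1 and mt-Nd5) were above 0 in 6 to 10 of the 11 libraries. The 7 rows of 784 bases or fewer were above 0 in at most 4, which was reached by mt-Atp8, the shortest at 204 bases. mt-Co2, mt-Co3, mt-Nd3 and mt-Nd4l were listed at 0 in all 11 libraries, brain included, and mt-Atp6 reached 4.84 and 0.400 FPKM in 2 brains. mt-Co2 and mt-Co3 code core subunits of the enzyme that mt-Co1 belongs to. Row lengths are those of RefSeq. Among the short rows, mt-Atp8 overlaps mt-Atp6 and mt-Nd4l overlaps mt-Nd4 in that annotation, and what sets these zeros was not tested. The summed mitochondrial level therefore rests on 5 to 9 of the 13 mRNAs in a brain and on 0 to 5 in a tumour.

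Values of other cell types moved with tissue as well. The 10 neuron markers summed to 96.3, 419 and 2879 FPKM in wild type tumours and 673 and 1386 in knockout tumours, against 4647 to 6415 in brains. In every brain this exceeded the sum of the 10 endothelial markers, which was 999 to 1515 FPKM there. In tumours the neuron sum lay above the endothelial sum in some libraries and below it in others. Tubb3 was at 0 in wild type tumours 1 and 3, and Syp, Stmn2 and Rbfox3 in wild type tumour 2. Wild type tumour 3 kept 50.6% of the wild type brain mean of the neuron markers and 0.577% of its mitochondrial mRNA, while wild type tumour 1 kept 1.70% and 1.75%. The 10 microglia and macrophage markers summed to 125 to 303 FPKM in tumours against 32.4 to 63.1 in brains, and the 5 glioma and progenitor markers to 195 to 325 against 40.3 to 52.7. The 9 astrocyte markers summed to 282 to 730 FPKM in tumours against 946 to 1611 in brains, with Gjb6 at 0 in the 3 wild type tumours and Aqp4 in wild type tumour 2. The 7 oligodendrocyte markers summed to 280 to 855 against 844 to 1087, with Mog and Cldn11 at 0 in wild type tumour 2. In bulk preparations, fewer cells of a type and less RNA per cell cannot be told apart, and the part of these cell types in the results was not tested.

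**Figure D2:**
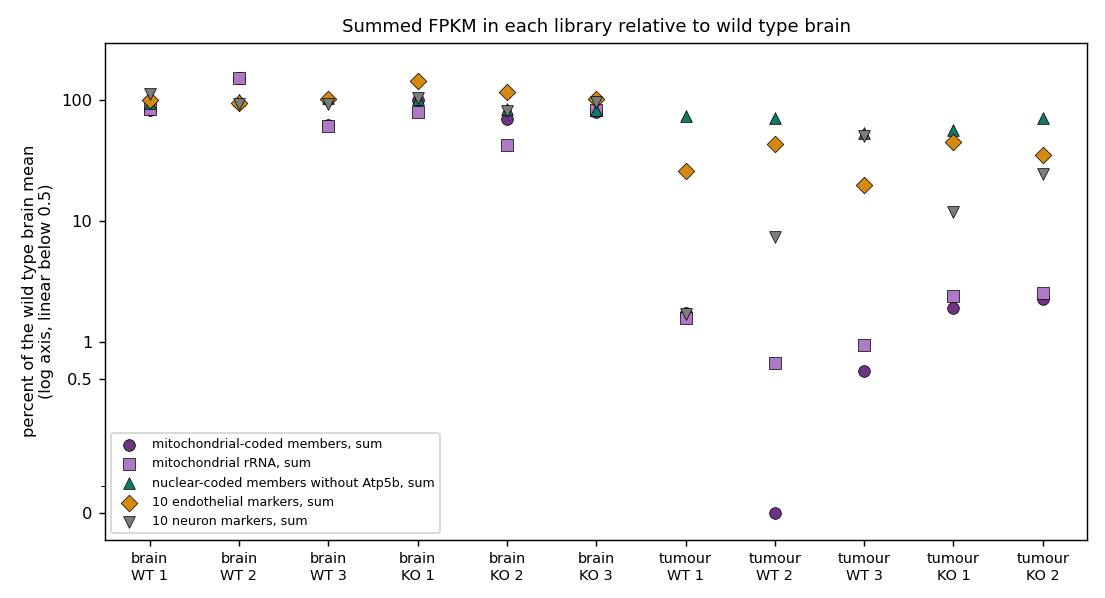
The vertical axis gives summed FPKM in each library as a percentage of the wild type brain mean, on a log scale that is linear under 0.5, for mitochondrial mRNA, mitochondrial rRNA, nuclear members without Atp5b, endothelial markers and neuron markers. The horizontal axis gives the 11 libraries. Mitochondrial mRNA stays at or below 2.27% in the 5 tumours, where the nuclear members stay between 53.7% and 74.2% and the neuron markers spread from 1.70% to 50.6%.

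Nuclear members changed far less. In wild type mice 8 of the 87 tested nuclear members were lower in tumour and none was higher, a share of 9.20%, where 11.7% of all tested genes were lower and 7.7% higher. Their median log2 change was -0.64, beside -0.26 over all tested genes, and 67 of the 87 estimates were below 0 (77.0%, beside 57.3% of all tested genes). In knockout mice 1 of 87 was lower and none was higher, where 2.29% of all tested genes were lower, with a median of -0.57 beside -0.18 and 69 of 87 estimates below 0 (79.3%, beside 55.5%). An unadjusted p under 0.05 was found for 27 nuclear members in wild type and 12 in knockout mice, where 34.4% and 24.6% of all tested genes had one. The lower calls over all genes, 1823 of 3024 in wild type mice, were 909 of 1927 under upper quartile scaling and 1409 of 2946 under quantile normalization. In knockout mice they were 357 of 1105, and 123 of 834 under upper quartile scaling. Without wild type tumour replicate 1 the wild type count was 13, a lower share of 14.9% where 6.6% of all tested genes were lower. Without replicate 2 it was 12 lower, 13.8% beside 8.71%, and Cox6b2, which met the expression filter only through tumours, was higher. So the order of the members' share and that of all genes turned with the library left out. With the neuron marker mean as a covariate, 0 of 15604 genes passed in wild type mice, no member of either genome among them, and 10 nuclear (11.5%) and 4 mitochondrial members had an unadjusted p under 0.05 by limma, as had 7.45% of all tested genes. In that fit mt-Co1 had a log2 change of -5.86 in wild type mice (SE 1.19, limma adjusted p = 0.1923). The summed neuron markers did not overlap between tumours and brains, so that fit cannot tell neuron content and tissue apart.

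Of the 8 lower members, 6 are genes of complex I, the NADH dehydrogenase through which most electrons enter the chain. They include Ndufaf3 and Ndufaf5, which are assembly factors and not subunits. Among the 87 tested nuclear members, complex I had 29 accessory subunits, 7 core subunits and 7 assembly factors. Ndufs7, a core subunit whose iron-sulfur cluster hands electrons to ubiquinone, had 110, 84.1 and 88.5 FPKM in wild type tumours and 254, 216 and 262 in wild type brains. Knockout tumours had 124 and 133 FPKM and knockout brains 295, 178 and 189. All tumours lay below all brains. Ndufs7 fell in wild type tumour, with a log2 change of -1.37 (SE 0.28, limma adjusted p = 0.007783) and a level of 38.7% of the brain mean, and had a log2 change of -0.74 in knockout tumour (SE 0.31, limma adjusted p = 0.1676).

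Ndufb4, Ndufb10 and Ndufb11 are accessory subunits of the membrane arm of complex I. Ndufb4 was the only nuclear member that passed in both genotypes. It had 61.2, 33.8 and 43.7 FPKM in wild type tumours and 15.2 and 37.4 in knockout tumours, against 141 to 177 in wild type brains and 207, 78.1 and 119 in knockout brains. The groups did not overlap, and it fell with log2 changes of -1.82 in wild type (SE 0.43, limma adjusted p = 0.01532) and -2.33 in knockout mice (SE 0.49, limma adjusted p = 0.01605). The knockout call was lost without knockout tumour replicate 1 (limma adjusted p = 0.2241) or knockout brain replicate 1 (limma adjusted p = 0.05659).

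Ndufb10 was at 51.8 ± 31.0 FPKM in wild type tumour and 196 ± 34.0 in wild type brain (SD, n = 3 each), and Ndufb11 at 42.7 ± 15.01 and 147 ± 23.1. Both fell in wild type tumour, with log2 changes of -2.08 (SE 0.46) and -1.81 (SE 0.39) and limma adjusted p of 0.01096 and 0.01042. In knockout mice both also had all tumours below all brains, with means of 108 ± 45.0 (n = 2) against 194 ± 57.3 (n = 3) for Ndufb10 and 45.8 ± 6.84 against 106 ± 48.6 for Ndufb11, and neither passed.

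Ndufaf5 and Ndufaf3 are assembly factors, the first known in human cells for hydroxylating an arginine of the Ndufs7 protein and the second for helping to build the early module that holds it. Ndufaf5 had 1.67, 0 and 5.35 FPKM in wild type tumours and 9.52 and 6.79 in knockout tumours. Brains had 35.8, 22.4 and 21.6 FPKM in wild type and 12.7, 33.1 and 19.2 in knockout mice. Ndufaf3 had 3.99, 0 and 4.89 FPKM in wild type tumours and 15.8 and 7.13 in knockout tumours, against 45.1, 28.0 and 30.3 and against 7.94, 28.7 and 64.3 in the brains of these genotypes. Ndufaf5 separated all tumours from all brains, and Ndufaf3 overlapped in knockout mice. Both fell in wild type tumour, with log2 changes of -3.39 (SE 0.68, limma adjusted p = 0.007309) and -3.49 (SE 0.82, limma adjusted p = 0.01432), and both missed the threshold in knockout tumour (limma adjusted p = 0.3502 and 0.4847).

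Outside complex I, Uqcrc2 and Cox7c passed in wild type mice. Uqcrc2, a core protein of complex III, was at 57.3 ± 19.4 FPKM in wild type tumour and 138 ± 44.8 in wild type brain (SD, n = 3 each), and had a log2 change of -1.26 (SE 0.34, limma adjusted p = 0.02473). Cox7c, a small nuclear-coded subunit of complex IV, had 16.0, 0 and 24.7 FPKM in wild type tumours against 102, 69.0 and 68.7 in wild type brains, and had a log2 change of -3.39 (SE 0.94, limma adjusted p = 0.02743). In knockout mice Cox7c was at 60.0 and 32.4 FPKM in tumour and 62.1 to 77.2 in brain (log2 change -0.66, SE 1.05, limma adjusted p = 0.747). Of the 8 calls, those of Ndufaf3, Ndufaf5 and Ndufb11 were kept under upper quartile scaling, and Cox7c and Uqcrc2 were also lost when only the compared groups were fitted.

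**Figure D3:**
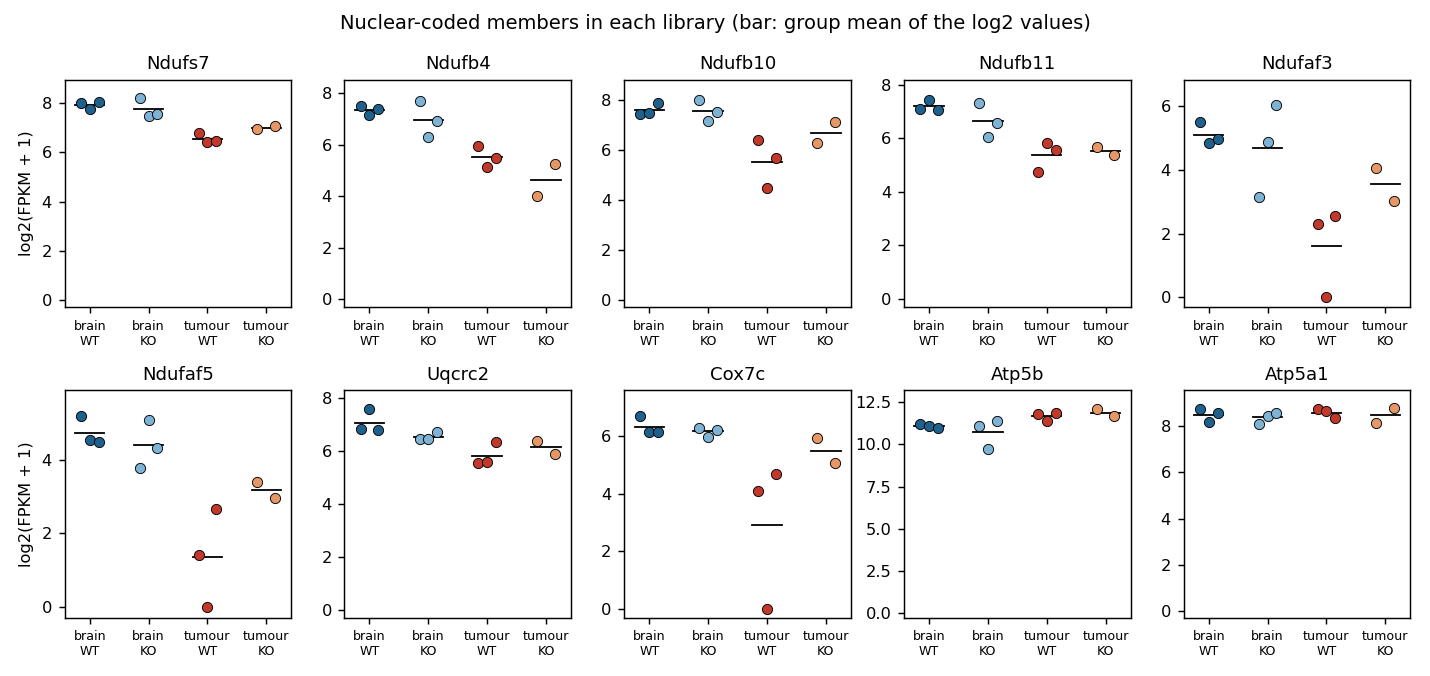
Each panel shows 1 nuclear member as log2(FPKM + 1) on the vertical axis against the 4 groups on the horizontal axis, with 1 point for each library and a bar at the group mean of the log2 values. The first 8 panels are the members lower in wild type tumour, and Atp5b and Atp5a1 are shown for complex V. Wild type tumour replicate 2 supplies the points at 0 for Ndufaf3, Ndufaf5 and Cox7c.

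The start regions of these genes were read to see what sequence they share, since the nuclear members are widely described as targets of NRF1, of GABP (an ETS factor also called NRF2) and of YY1. In the windows below, from 250 bases before to 50 bases after the annotated start, capitals mark any match on either strand to the NRF1 motif GCATGCG, the ETS core CCGGAAG or the YY1 core AAGATGG. Sequences are from RefSeq on GRCm38.p6 and run 5′ to 3′ on the gene's strand. Ndufs7 (chr10:80249199-80249498, plus strand) stands for the core subunits, Ndufaf5 (chr2:140170396-140170695, plus strand) for the assembly factors, Cox7c (chr13:86046746-86047045, minus strand) for complex IV, and Ndufb4 (chr16:37654319-37654618, minus strand) is the member called in both genotypes.
Ndufs7: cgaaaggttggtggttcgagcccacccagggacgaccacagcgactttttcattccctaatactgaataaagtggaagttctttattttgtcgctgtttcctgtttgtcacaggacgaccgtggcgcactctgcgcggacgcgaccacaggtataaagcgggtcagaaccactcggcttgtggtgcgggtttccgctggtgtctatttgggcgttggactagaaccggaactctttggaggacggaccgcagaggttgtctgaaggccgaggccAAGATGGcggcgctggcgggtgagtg
Ndufaf5: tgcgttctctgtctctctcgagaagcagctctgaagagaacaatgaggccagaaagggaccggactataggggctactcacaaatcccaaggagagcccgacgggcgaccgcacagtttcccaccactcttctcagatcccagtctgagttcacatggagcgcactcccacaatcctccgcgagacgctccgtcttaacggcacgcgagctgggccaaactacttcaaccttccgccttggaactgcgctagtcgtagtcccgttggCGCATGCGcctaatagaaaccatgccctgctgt
Cox7c: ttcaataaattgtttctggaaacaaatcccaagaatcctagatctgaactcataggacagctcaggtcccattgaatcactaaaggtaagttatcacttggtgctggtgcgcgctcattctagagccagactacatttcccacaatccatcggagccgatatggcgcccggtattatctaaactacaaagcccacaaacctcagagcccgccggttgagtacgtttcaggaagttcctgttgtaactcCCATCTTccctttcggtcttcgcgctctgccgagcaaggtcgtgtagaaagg
Ndufb4: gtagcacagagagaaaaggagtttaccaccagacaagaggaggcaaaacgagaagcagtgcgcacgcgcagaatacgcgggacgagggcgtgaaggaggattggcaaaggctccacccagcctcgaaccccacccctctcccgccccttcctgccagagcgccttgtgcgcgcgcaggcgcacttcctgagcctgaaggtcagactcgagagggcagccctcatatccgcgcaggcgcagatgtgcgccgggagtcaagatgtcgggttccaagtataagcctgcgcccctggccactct

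The Ndufs7 window held 1 YY1 match downstream of the start and the Cox7c window 1 YY1 match on the opposite strand next to it. The Ndufaf5 window held a palindromic stretch in which NRF1 motifs of both strands overlap, and the Ndufb4 window held none of the 3 motifs. Windows were found for 76 of the 92 nuclear members and for 7 of the 8 lower ones, and 3 of those 7 held a match to any of the motifs. Over the 76, the NRF1 motif was present in 17.1%, the ETS core in 22.4% and the YY1 core in 15.8%, and any of them in 46.1%. Over all 27025 genes of the table these shares were 4.02%, 9.93%, 7.28% and 19.3%, and over the 11058 tested genes with a window 6.88%, 18.1%, 8.00% and 29.3%. A match is a description of the letters and not a measured binding site.

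By complex, summed levels of nuclear members in tumour differed in how much they kept of the brain level. The complex I sum includes the assembly factors, that of complex IV Ndufa4 and Ndufa4l2, and that of complex V Atp5s and Atp5sl. Complex I members summed to 2121 ± 232 FPKM in wild type tumour (SD, n = 3) and 3393 ± 414 in wild type brain (n = 3), a level of 62.5%, and knockout tumour had 61.8% of knockout brain. Complex IV kept the least of its nuclear sum, 53.2% in wild type and 57.2% in knockout mice. Complex III kept 70.0% and 79.0%. For complexes I and IV every tumour sum lay below every brain sum. Complex II, succinate dehydrogenase, which also belongs to the citrate cycle, kept 98.4% and 86.0%, and without wild type tumour replicate 2 the wild type value was 73.9%.

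The estimates of complex II lay close to 0 in wild type mice. Sdha, the flavoprotein, had 55.3, 148 and 61.6 FPKM in wild type tumours and 66.8, 126 and 69.4 in wild type brains. Sdhb, the iron-sulfur subunit, had 106, 174 and 99.9 and 143, 140 and 116. These ranges overlapped, and the 4 estimates ran from -0.14 to 0.002448 in wild type and from -0.92 to 0.21 in knockout mice, with 0 of 4 passing by limma and 0 with an unadjusted p under 0.05 in either genotype. The SEs in knockout mice were 0.34 to 0.72. Sdhc, a membrane anchor, had the estimate of -0.92 there, with 13.6 and 27.9 FPKM in tumours and 26.9, 55.5 and 36.0 in brains, ranges that overlapped.

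Complex V went the other way in its sum, at 114% of brain in wild type and 144% in knockout mice, through 1 gene. Atp5b, the catalytic beta subunit of the ATP synthase, had 3658, 2743 and 3810 FPKM in wild type tumours and 4435 and 3295 in knockout tumours. Brains had 2399, 2196 and 2008 FPKM in wild type and 2197, 846 and 2676 in knockout mice. It was the highest member in all 4 groups, and all 5 tumours lay above all 6 brains, though only narrowly. The change did not pass in wild type (log2 change 0.62, SE 0.38, limma adjusted p = 0.2809) or in knockout mice (1.16, SE 0.43, limma adjusted p = 0.1217). Its partner Atp5a1, the alpha subunit, was nearly level at 389 ± 50.5 in wild type tumour and 367 ± 72.1 in wild type brain (SD, n = 3 each). Without Atp5b the nuclear members summed to 66.6% of brain in wild type and 71.0% in knockout mice.

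None of the 14 tested complex V members, here without Atp5s and Atp5sl, passed in either direction by limma, and 2 had an unadjusted p under 0.05 in each genotype. Atp5c1, the rotating gamma subunit, came closest in wild type mice, at 91.5 ± 15.5 in tumour and 169 ± 42.5 in brain (log2 change -0.86, SE 0.29, limma adjusted p = 0.05531). Complex IV had 1 lower of 15 tested members in wild type and none in knockout mice, complex I had 6 of 43 and 1 of 43, and complex III had 1 of 9 and 0 of 9. These stand beside 11.7% and 2.29% of all tested genes, and counts this small do not set a complex apart from them.

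Other members close to the threshold had the same mixed picture. Cox7a2l, known for binding complexes III and IV into supercomplexes, had 41.9, 57.2 and 36.2 FPKM in wild type tumours and 27.1 and 35.1 in knockout tumours, against 71.4, 119 and 121 and against 101, 177 and 56.7 in the brains of these genotypes. Tumour and brain did not overlap within a genotype, and the limma adjusted p was 0.0748 in wild type and 0.05616 in knockout mice. Uqcrh, the hinge protein of complex III, had 26.3 and 45.0 FPKM in knockout tumours against 95.0 to 123 in knockout brains, and 45.9, 153 and 32.7 in wild type tumours against 124 to 156 in wild type brains. Wild type tumour replicate 2 alone reached the brain range, and Uqcrh passed in neither genotype (limma adjusted p = 0.1076 and 0.1051). Uqcr10 and Cox8a, small subunits of complexes III and IV, were at 0 in that same library, and at 8.46 to 74.8 FPKM in the 4 other tumours.

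Other core and complex V members passed in neither genotype. Ndufs1, the largest iron-sulfur protein of complex I, had 73.9, 100 and 51.8 FPKM in wild type tumours and 28.3, 45.0 and 55.9 in wild type brains (log2 change 0.80, SE 0.36, limma adjusted p = 0.1407). Its knockout tumours, at 56.0 and 63.0 FPKM, lay on both sides of the highest knockout brain at 58.5. Ndufv1, which binds NADH, had 112, 218 and 137 FPKM in wild type tumours and 190, 119 and 231 in wild type brains, ranges that overlapped. Ndufv2, its partner in the electron input module, had a log2 change of -0.62 in wild type and -0.91 in knockout mice and passed in neither. Atp5l, a subunit of the membrane part of complex V, had 161, 129 and 59.4 FPKM in wild type tumours against 245, 268 and 208 in wild type brains (limma adjusted p = 0.07306), while knockout tumours at 137 and 170 lay within the range of knockout brains. Atp5f1, of the stalk that holds the catalytic head, had 132, 108 and 129 against 207, 155 and 199 in wild type mice (limma adjusted p = 0.1478).

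**Figure D4:**
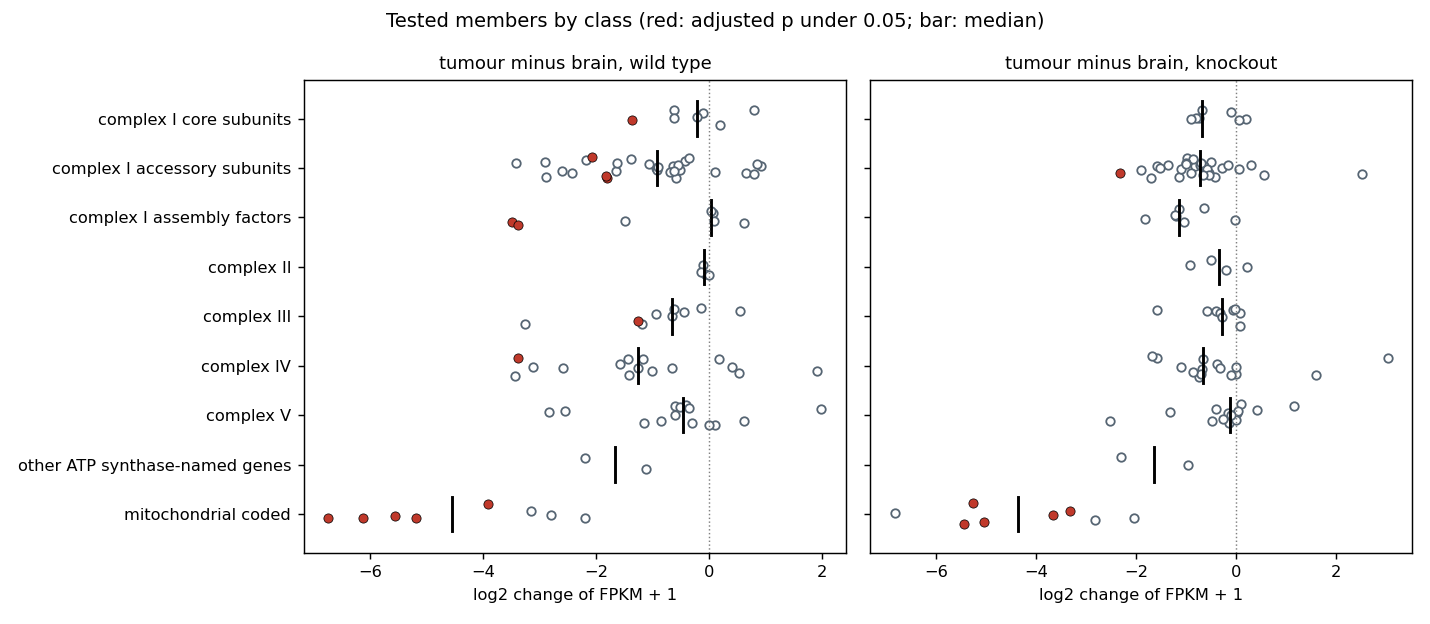
Each point is 1 tested member, with its tumour minus brain log2 change of FPKM + 1 on the horizontal axis and its class on the vertical axis, wild type at left and knockout at right. Red points passed an adjusted p of 0.05, and bars are class medians. The mitochondrial-coded members lie from -6.74 to -2.21 in wild type and from -6.83 to -2.04 in knockout mice, to the left of most nuclear members.

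Across both genotypes, 12 of the 87 nuclear members and 5 of the 8 mitochondrial members had all 5 tumours below all 6 brains, where 12.3% of all tested genes did. The nuclear ones were Ndufa7, Ndufa8, Ndufa11, Ndufb4, Ndufb9, Ndufb10, Ndufb11, Ndufs7, Ndufaf5, Uqcrc2, Cox7c and Atp5sl. Of these, 9 are complex I genes, counting the assembly factor Ndufaf5, and Atp5sl, named for the ATP synthase, is known in human cells as an assembly factor of complex I. Ndufb9 was the most even of them, with 115 to 145 FPKM in tumours and 154 to 262 in brains. Atp5b was the only member with all tumours above all brains, where 8.73% of all tested genes were. The nuclear share is close to that of all genes, while the mitochondrial one is not. Among the mitochondrial members without overlap, mt-Nd4 and mt-Cytb passed the expression filter only through brain libraries.

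The order of the nuclear members by level was nearly the same everywhere. Spearman's rho of the group means over the 87 members was 0.885 to 0.956 between groups, a description over genes that share their libraries. Atp5b was followed in wild type brain by Atp5h, Uqcrb and Uqcrc1 at 458, 451 and 375 FPKM, and in wild type tumour by Atp5a1 at 389 FPKM. The levels of Atp5h, Uqcrb and Uqcrc1 in wild type brain lie inside the spread between libraries. FPKM is scaled to transcript length, so these levels are per length.

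Tissue-restricted forms of complex IV subunits were at or near 0. Cox7a1, Cox8b and Cox6a2 are known as heart and muscle forms. Cox7a1, Cox8b, Cox8c and Cox7b2 were at 0 in all libraries, and Cox6a2 reached 2.60 FPKM in 1 wild type tumour and 1.56 in 1 wild type brain. Ndufa4l2, a form known to be induced by low oxygen, was above 0 in 2 wild type brains, at 4.15 and 1.66 FPKM, and in no tumour. Cox4i2, another form linked to oxygen supply, had 6.99, 2.73 and 1.33 FPKM in 3 tumours and 4.83 in 1 knockout brain, and was at 0 in the other 7 libraries.

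Cox6b2, known as the testis form of a subunit on the intermembrane side of complex IV, had 9.19, 0 and 12.4 FPKM in wild type tumours and 11.7 and 4.28 in knockout tumours, against 1.58 FPKM in 1 brain and 0 in the other 5. It made up 8.75% and 11.3% of the Cox6b1 and Cox6b2 sum in wild type and knockout tumour, and 0.403% and 0 in the brains. Its change did not pass (limma adjusted p = 0.1578 in wild type and 0.09264 in knockout mice). It passed as higher in both genotypes under quantile normalization, with library weights, without wild type tumour replicate 2, and, in knockout mice, when only the compared groups were fitted. However, Cox6b2 reached the expression filter only through tumour libraries. For it the filter itself favoured a higher tumour estimate, which limits what these calls show. The 3 genes of the ring subunit of complex V kept their order of Atp5g3 first in each group mean, with 41.5% to 55.4% of their sum.

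Wild type and Eltd1-/- mice were then compared within each tissue. No member passed in tumour, in brain or in the difference between them by limma, where 0.0192%, 0.00641% and 0.00641% of all tested genes passed, 3, 1 and 1 genes. Adgrl4 itself did not pass, with log2 changes of -2.78 in tumour (SE 0.69, limma adjusted p = 0.9015) and -2.46 in brain (SE 0.62). A member that does not pass here is therefore not shown to be unchanged. An unadjusted p under 0.05 was found for 4 nuclear and 1 mitochondrial members in tumour, for 2 and 1 in brain, and for 0 and 1 in the difference, beside 3.11%, 4.35% and 3.18% of all tested genes. The median nuclear change of knockout against wild type was 0.17 in tumour and -0.15 in brain, beside 0.16 and 0.02 over all tested genes, and the brain median was 0.06 under upper quartile scaling.

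In tumour the nuclear members of smallest p were Cox4i2, Cox7c, Ndufaf5 and Ndufb10, with log2 changes of 2.04 (SE 0.79), 2.57 (SE 1.05), 1.82 (SE 0.76) and 1.18 (SE 0.51) and a limma adjusted p of 1 each. All 4 were estimated higher in knockout tumour, and for 3 of them a library of the wild type tumours was at 0. In brain they were Ndufb3 at 2.195 (SE 0.83), Ndufa4l2 at -1.26 (SE 0.54), Sdhb at -0.53 (SE 0.31) and Ndufb5 at 0.78 (SE 0.48), again with a limma adjusted p of 1. Ndufa4l2 reached the expression filter only through wild type brain libraries, so the filter itself favoured its lower knockout estimate. In the difference between tissues Ndufaf5, Uqcr10, Cox7c and Ndufaf3 had estimates of 2.16, 3.19, 2.72 and 2.35 with SEs of 1.02 to 1.59 and a limma adjusted p of 0.9997. Without wild type brain replicate 2, which held mt-Atp8 at 334 FPKM beside 0 in the other wild type brains, mt-Atp8 was called higher in knockout brain. In that fit mt-Atp8 met the filter only through knockout brains, which favoured this direction. Changes of these sizes did not stand out from the spread between libraries.

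**Figure D5:**
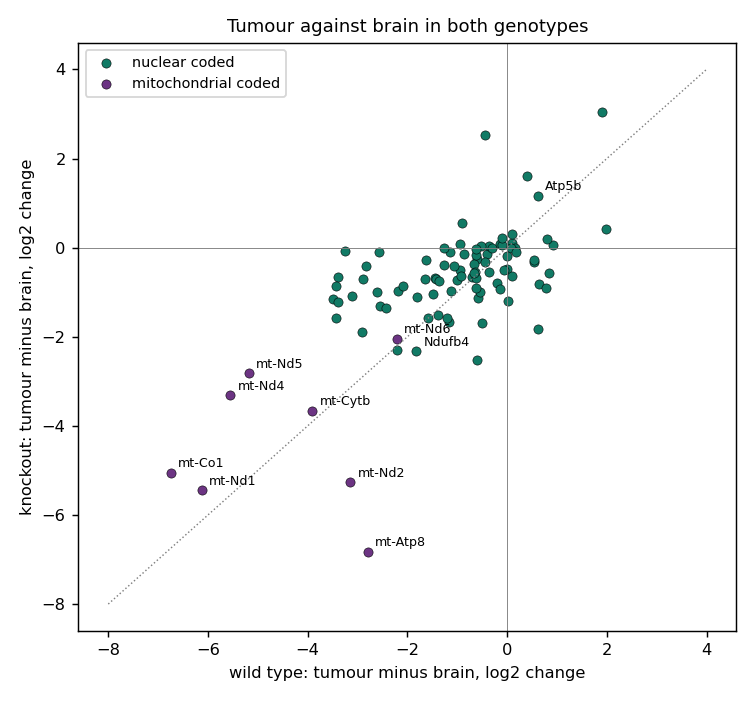
Each point is 1 tested member, with the tumour minus brain log2 change in wild type mice on the horizontal axis and in knockout mice on the vertical axis, and the dotted line marks equal changes. The pair of comparisons shares no library. Mitochondrial-coded members fill the lower left, with mt-Co1 at -6.74 and -5.05, and mt-Atp8, called in neither, lies lowest at -6.83 in knockout mice.

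Other genes that serve mitochondria were read from the same fit, in which 7.7% of all tested genes were higher and 11.7% lower in wild type tumour, and 4.79% and 2.29% in knockout tumour. The list counts below are small and are given as a description. Of 33 assembly factors of complexes II to V, 3 were lower and 0 higher in wild type tumour, Ttc19 for complex III (13.4 ± 4.44 against 46.9 ± 9.51 FPKM), Atpaf1 for complex V (16.3 ± 10.6 against 58.1 ± 20.5) and Pet100 for complex IV, and 0 passed in knockout mice. Pet100 had 11.4, 0 and 1.41 FPKM in wild type tumours against 10.6, 53.5 and 24.4 in wild type brains. The citrate cycle and pyruvate dehydrogenase list had 4 of 17 higher and 0 lower in wild type tumour. Among them Idh3g, a subunit of isocitrate dehydrogenase, was at 183 ± 11.8 against 84.1 ± 26.8 FPKM, Pdha1 of pyruvate dehydrogenase at 191 ± 30.1 against 96.0 ± 16.7, and Cs, citrate synthase, at 193 ± 58.6 against 91.7 ± 8.83 (SD, n = 3 each). In knockout mice 0 of 17 passed by limma, 2 having an unadjusted p under 0.05.

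The genes for upkeep of mitochondrial DNA and RNA were higher where they passed, 5 of 21 in wild type tumour and 1 of 21 in knockout tumour, with none lower. Pnpt1, an RNA-degrading exonuclease of mitochondria, was at 84.7 ± 6.34 FPKM in wild type tumour and 4.81 ± 1.14 in wild type brain, and rose in both genotypes by 3.90 (SE 0.52, limma adjusted p = 0.0008877) and 3.30 (SE 0.59, limma adjusted p = 0.007002). Peo1, the helicase of mitochondrial DNA, and Elac2, which trims mitochondrial tRNA ends, rose in wild type tumour (log2 changes 2.35 and 1.82). Of 10 regulators of mitochondrial biogenesis, Pprc1, a coactivator related to PGC-1, rose by 5.21 (SE 0.52, limma adjusted p = 0.0002114) in wild type and 3.15 (SE 0.58, limma adjusted p = 0.008297) in knockout tumour. Ppargc1a, which codes PGC-1alpha, had 0.551, 0 and 10.8 FPKM in wild type tumours and 32.3, 17.9 and 26.8 in wild type brains, and fell there (log2 change -3.30, SE 0.82, limma adjusted p = 0.01802), while in knockout mice it did not pass (limma adjusted p = 0.2896).

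Of 77 mitochondrial ribosomal protein genes, 1 was higher (Mrps12) and 1 lower (Mrps33) in wild type tumour and 0 passed in knockout mice, with medians of 0.02 and 0.03. Both calls involve zeros. Mrps12 had 23.6, 70.2 and 29.9 FPKM in wild type tumours against 0, 0 and 31.2 in wild type brains. Mrps33 had 11.6, 0 and 6.72 against 77.3, 55.6 and 58.0. Of 15 carrier and cytochrome c genes, 1 was higher and 2 lower in wild type tumour. Slc25a13, an aspartate and glutamate carrier, rose by 3.62 (SE 0.79, limma adjusted p = 0.01067), and Ucp2, an uncoupling protein, and Slc25a22, a glutamate carrier, fell (log2 changes -1.11 and -1.23). Of 8 antioxidant enzymes, 2 were lower in wild type and 1 in knockout tumour, and Sod2, the manganese superoxide dismutase, fell in both, with log2 changes of -1.86 (SE 0.41, limma adjusted p = 0.01131) and -1.77 (SE 0.46, limma adjusted p = 0.04141).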

How the data were processed

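RNA captured through the endothelial ribosome tag was analysed in 11 libraries of 4 groups, with replicates being separate mouse samples whose numbers pair no samples. The deposited values are FPKM per gene, per the file headers, made with TopHat2 2.1.1 and Cufflinks 2.2.1 on GRCm38, per the submitters' processing notes. The sources used here name neither the annotation nor any use of strand, so overlapping and antisense genes are uncertain, and so are genes with near-identical processed copies, which oxidative phosphorylation genes have. Each file held 46073 entries, and 474 repeated entries of 209 symbols were summed, leaving 45808 genes.

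The 15604 genes that reached 1 FPKM in 2 or more libraries were tested on log2(FPKM + 1) with limma 3.58.1 in R 4.3.3: 4 group means over all 11 libraries, eBayes with a variance trend, two-sided tests, and Benjamini-Hochberg adjustment over all tested genes with a threshold of 0.05. The fit was tested on simulated data. The deposited values hold no counts, so no counting interval is given.

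Every mitochondrial-coded member was named, and in each nuclear class and tumour against brain comparison up to 3 members of smallest p, with the members that passed. Beside these came the 4 nuclear members of smallest p in each genotype comparison, some members of paralog sets, and up to 3 genes of smallest p in each list of other mitochondrial genes. Ndufb9, Ndufa7, Ndufa8, Ndufa11, Atp5h, Uqcrc1 and Atp5a1 were named after their values were seen. Members and lists were chosen with earlier results of these data known. Alternatives were pseudocounts, filters, scalings, library weights, no variance trend, the compared groups alone, the highest of repeated entries, a neuron covariate and leaving out libraries.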

Additional observations from a re-analysis of the deposited data

How the results depend on the processing

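Under the alternatives run, no named member that passed changed its sign. In wild type mice the 8 lower nuclear members became 3 with upper quartile scaling, 14 (13 lower) with library weights and 0 with the neuron covariate, and the 5 mitochondrial members became 0 with that covariate. With wild type tumours 2 and 3 left out together, log2 changes of Ndufs7, Ndufb4, Ndufb10, Ndufaf3 and mt-Cytb shrank to -1.13, -1.38, -1.21, -2.80 and -3.26 there. The other called members are not given for that fit. In knockout mice the single nuclear call became 0 with upper quartile scaling and with the neuron covariate, 2 with quantile normalization, 10 with library weights, 9 when only the groups compared were fitted and 7 with wild type tumours 2 and 3 left out together. Each of these last 4 counts holds Cox6b2 as higher, and all tested genes called moved with them, from 7.08% to 11.7%, 26.4%, 22.6% and 17.9%. In wild type mice 12.3% of all tested genes passed with upper quartile scaling and 31.6% with library weights, beside 19.4%. The 5 mitochondrial calls in knockout mice became 1 with a pseudocount of 0.1, 3 with no filter and 1 with the neuron covariate. In the other direction, mt-Atp8 and mt-Nd5 were also called lower there under quantile normalization, with library weights and when only the groups compared were fitted. Under upper quartile scaling mt-Atp8 was called lower there and mt-Cytb was not. The covariate left 0 and 123 of 15604 genes called in the 2 genotypes. The summed neuron markers were at most 2879 FPKM in a tumour and at least 4647 in a brain. This fit therefore cannot tell neuron content and tissue apart, and the loss of calls decides nothing about either.

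Leaving out each library in turn gave 7 to 13 nuclear and 5 to 6 mitochondrial calls in wild type mice, and 0 to 5 and 2 to 6 in knockout mice. The knockout nuclear count was 5 without wild type tumour 2, and 2 without wild type tumour 3, wild type brain 1 or knockout brain 3. Genotype counts stayed at 0, except 0 to 1 for mitochondrial members in brain and in the difference, which was mt-Atp8 without wild type brain 2. Where 1 tumour of a genotype was left, it was assumed to vary like the other groups. The median change of all genes moved from -0.26 to 0.01 under quantile normalization and to -0.15 under upper quartile scaling in wild type mice, and that of nuclear members to -0.53 and -0.52. In knockout mice upper quartile scaling moved the nuclear median from -0.57 to -0.37. In tumour it moved the knockout minus wild type median of nuclear members to 0.48 and of all genes to 0.38.

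No paired analysis was possible because the sample numbers run through the series and pair no samples across groups. Depth is unknown, groups hold 2 or 3 libraries, and a member with a library at 0 depends on the pseudocount.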
